A study of Ovis aries with 8 samples.

Results

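Fat cells store fatty acids as triacylglycerol, and the transcripts of 10 enzymes of its synthesis were examined here in perirenal adipose tissue of lambs with and without the Callipyge mutation. Of the 10 transcripts, 6 read higher on average in the mutant lambs by 0.51 to 0.74 log2 units, 3 differed by at most 0.10 and 1 was lower by 0.73, and no adjusted p passed 0.05. The 10 genes were taken by symbol, and the brightest of a gene's probe sets (groups of short probes that read 1 transcript) over the 8 arrays stood for the gene. They are 10 of the 9155 genes that the array's annotation names. Of the lambs, 4 were NmatCpat, which inherited the Callipyge allele from the father only, and 4 were NmatNpat, which carried no Callipyge allele. All 8 were Dorset/Suffolk/Rambouillet cross-bred males of 12 weeks, each lamb gave 1 Affymetrix Bovine Genome Array, and the sources used here name no treatment of either genotype. The lambs came from 1 research flock, and the tissue was a whole piece of fat from around the kidney, so it held every cell type present there.

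Triacylglycerol is built on a glycerol backbone in a fixed order of steps. A fatty acid is first joined to coenzyme A by an acyl-CoA synthetase. Glycerol phosphate acyltransferases attach the first fatty acid to glycerol 3-phosphate, lysophosphatidate acyltransferases attach the next, phosphatidate phosphatases remove the phosphate, and diacylglycerol acyltransferases complete the molecule. Fat cells make the glycerol phosphate from glucose or, by glyceroneogenesis, from pyruvate and related precursors. Callipyge lambs are known for large hindquarter muscles and a lean carcass, and the comparison asked whether the transcripts of these steps differed in their fat.

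The probes were designed on cattle sequence, so a sheep transcript that differs from cattle under them can read low, and levels of different genes were not set against each other. Of the 12 fat cell markers listed, 10 were measured, none was at the lowest value of the array, 5 were higher and 5 lower in NmatCpat lambs, and their deposited signals summed to between 43656 and 52747 in NmatCpat lambs and between 45652 and 48187 in NmatNpat lambs. No fat cell marker passed the test. The markers of other cell types set NmatNpat animal 1 and, less broadly, NmatCpat animal 4 apart. All 9 measured neuron markers were highest in NmatNpat animal 1, with sums between 2418 and 2974 in NmatCpat lambs and between 2192 and 24857 in NmatNpat lambs, and 8 of 11 measured skeletal muscle markers were highest in NmatCpat animal 4, with sums between 3816 and 6217 in NmatCpat lambs and between 4640 and 6906 in NmatNpat lambs. None of these markers was at the lowest value. The highest muscle sum was that of NmatNpat animal 4. On their brightest probe sets MYH7, TNNT3 and CKM were highest in NmatNpat lambs, and CKM was lowest in NmatCpat animal 4 (9.22). A dimmer CKM probe set (7.47) and a dimmer MYH7 one (6.72) were instead highest in NmatCpat animal 4. Another dimmer MYH7 probe set was highest in NmatNpat animal 2 (5.43). Over the other 8 marker lists, 1 gene was called on its brightest probe set, AHSP, which was higher in NmatCpat lambs by 2.22. AHSP is the hemoglobin-stabilizing protein of red cells. Dimmer probe sets of the liver markers ALB (-3.83 and -3.69) and AHSG (-1.47) also passed P of 0.05 and a fold over 1.5. The brightest probe sets of ALB and AHSG differed by -0.09 and -0.03. A dimmer probe set of the muscle marker MYH1 passed too (2.08). Of the brown fat markers 2 of 2 measured were higher, of the red cell markers 2 of 4, kidney 3 of 7, liver 3 of 9, adrenal cortex 4 of 7, macrophage 3 of 7, endothelium 4 of 7 and lymphocytes 0 of 6. The part of these cells in the enzymes' values was not tested. In whole tissue, fewer cells of a type and less RNA per cell cannot be told apart. The calls of the enzymes and of the pathway lists are also given without NmatNpat animal 1 and NmatCpat animal 4.

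Across the 10 enzymes, 9 differences were above 0 and 1 was below, with a median of 0.55 log2 units, where a difference of 1 is a 2-fold change. Over all 9155 genes, 50.7% of differences were above 0 and the median was 0.00. The 2 values are descriptive, since genes read in the same 8 lambs are not independent. One enzyme, GPAT3, passed the call rule of P at most 0.05 and a fold change over 1.5. Of the 24016 probe sets 3.93% passed it, 2.04% as higher and 1.88% as lower in NmatCpat lambs. Of the 9155 named genes, each on its brightest probe set, 2.91% passed it. One enzyme, ACSL5, had every NmatCpat lamb above every NmatNpat lamb, which held for 1.41% of probe sets. The opposite held for 1.32%, and lack of overlap in either direction for 2.74% of probe sets and 2.84% of named genes. At P of at most 0.05 alone, 4.66% of probe sets passed, and GPAT3 and ACSL5 were the 2 enzymes among them. No probe set had an adjusted p under 0.05 in limma, although 1118 had an unadjusted P of at most 0.05. With NmatNpat animal 1 and NmatCpat animal 4 left out, 3 enzymes passed the call rule, DGAT1, DGAT2 and ACSL5, and GPAT3 did not. In that fit 4.28% of all probe sets and 2.98% of named genes passed.

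**Figure D1:**
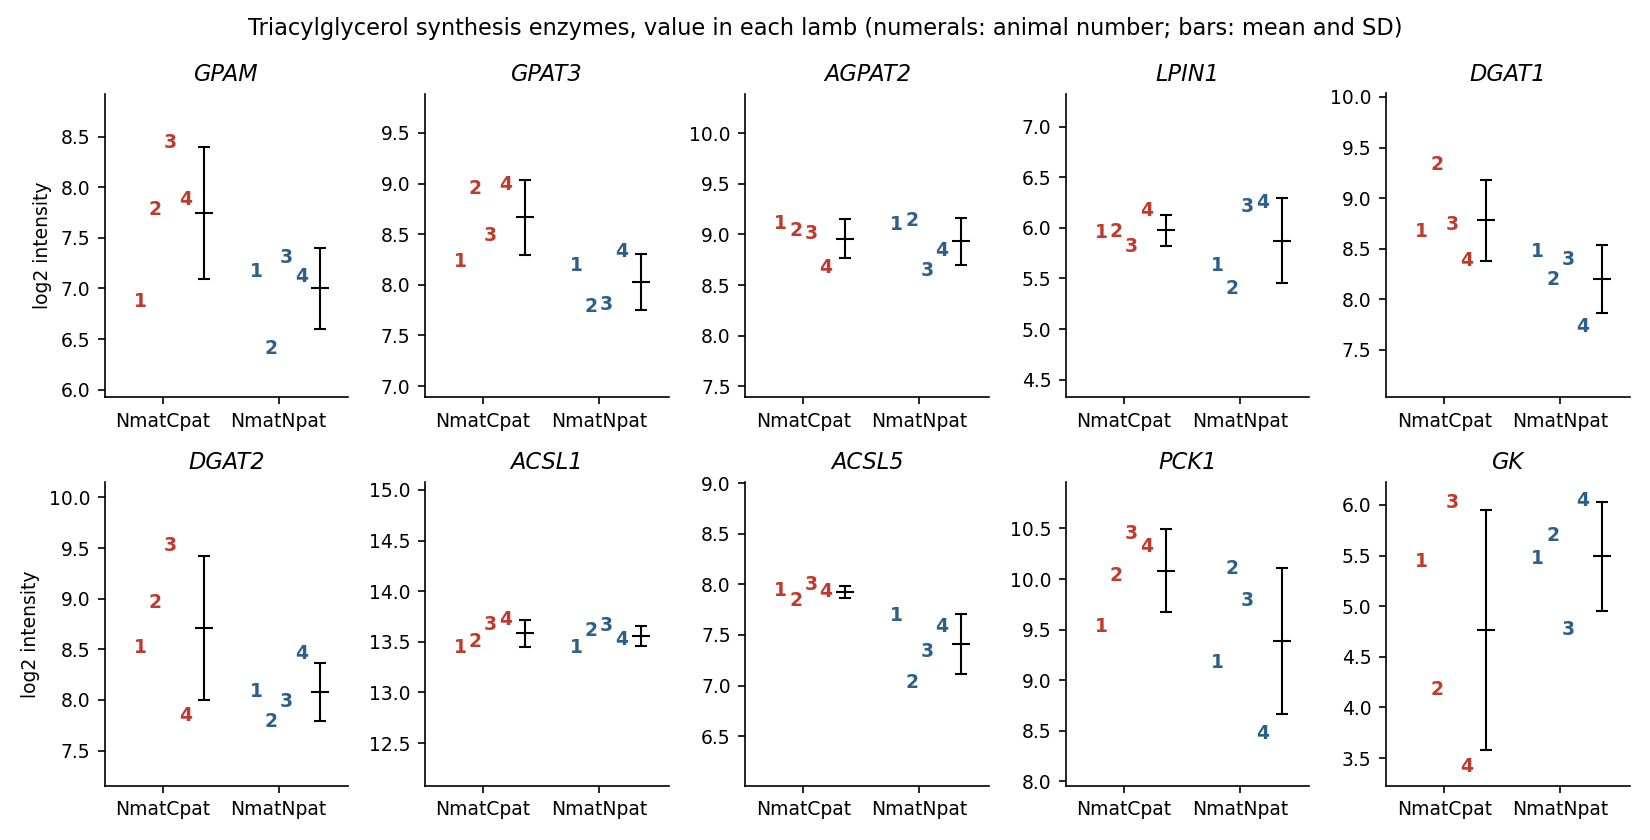
Log2 intensity of the 10 enzymes in each lamb, NmatCpat left and NmatNpat right in every panel, with the animal number as the symbol and the mean and SD as bars (n = 4 each). All panels span the same range of log2 units, and of the 10 enzymes only ACSL5 has genotypes that do not overlap.

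**Figure D2:**
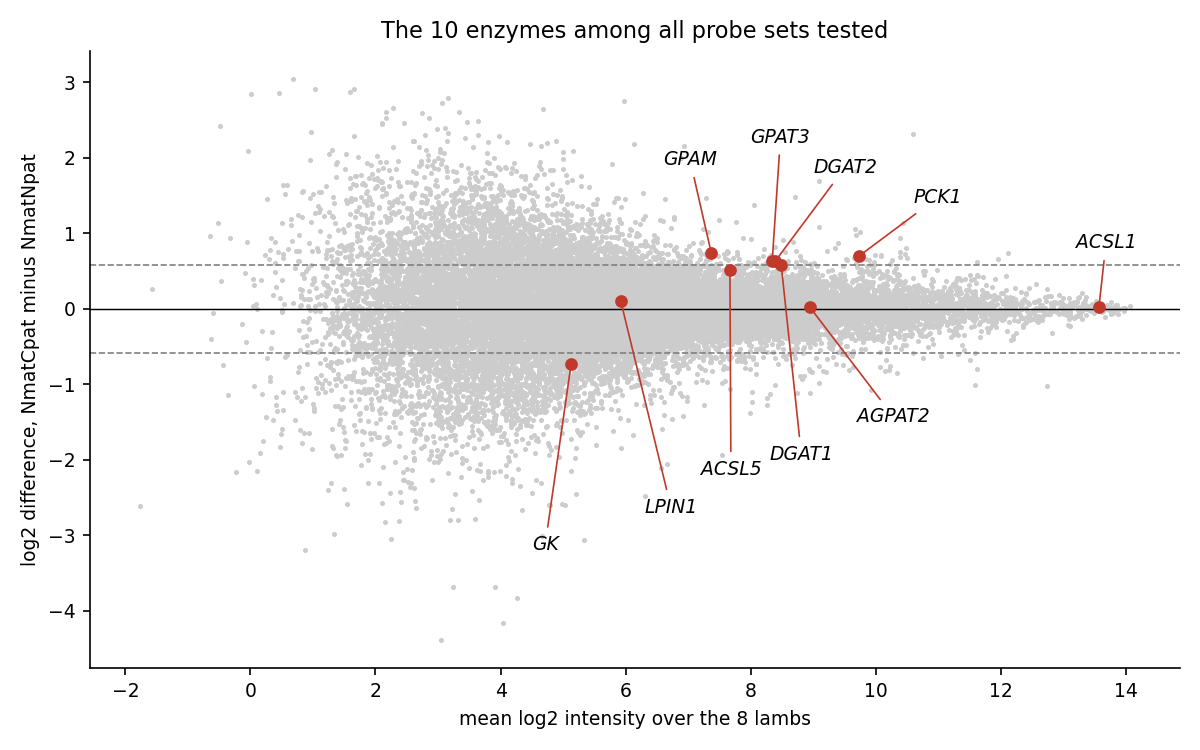
Mean log2 intensity over the 8 lambs (horizontal axis) against the log2 difference, NmatCpat minus NmatNpat (vertical axis), for the 24016 probe sets in grey and the 10 enzymes in red, with dashed lines at a 1.5-fold change. GPAM, GPAT3, DGAT2 and PCK1 lie above the upper line, GK below the lower one, and ACSL1, AGPAT2 and LPIN1 near 0.

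The acyl-CoA synthetases activate fatty acids. ACSL1, the main synthetase of fat cells, read 13.44, 13.50, 13.67 and 13.72 log2 units in NmatCpat animals 1 to 4, against 13.44, 13.61, 13.66 and 13.52 in NmatNpat animals 1 to 4. The genotypes were intermixed and the whole range over the 8 lambs was narrow. Its difference was 0.02 (standard error 0.15, 95% interval -0.33 to 0.37), an interval that excludes a 1.5-fold change in either direction. ACSL5, a synthetase of the endoplasmic reticulum and mitochondria, read 7.94, 7.85, 7.99 and 7.93 in NmatCpat animals 1 to 4, against 7.69, 7.03, 7.34 and 7.59 in NmatNpat animals. The 4 NmatCpat lambs lay close together and above all 4 NmatNpat lambs. The means were 7.93 ± 0.0613 in NmatCpat and 7.41 ± 0.296 in NmatNpat lambs (SD, n = 4 each), a difference of 0.51 (standard error 0.19, 95% interval 0.08 to 0.95). The exact permutation test, two-sided over the 70 arrangements of the lambs, gave p = 0.0286, the smallest it can give, and the adjusted p in limma was 0.98. The fold change of 1.43 stayed under the 1.5 of the call rule. Without NmatNpat animal 1 the difference was 0.61, and ACSL5 then passed the rule. Without NmatNpat animal 2 it was 0.38, and its P in limma was then above 0.05, as it was without NmatCpat animal 1, 3 or 4 or NmatNpat animal 3 (0.49 to 0.51).

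Of the other synthetases, ACSL3, found on the endoplasmic reticulum and lipid droplets, differed by 0.19 (95% interval -0.32 to 0.71) on its brightest probe set and by -0.05 and -0.99 on the dimmer ones. ACSL6, known best from brain, differed by 0.08 (95% interval -0.66 to 0.82). Neither passed the test, and ACSL4 is not among the genes named here.

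Glycerol phosphate for the backbone can come from pyruvate through the cytosolic phosphoenolpyruvate carboxykinase PCK1, the key enzyme of glyceroneogenesis in fat. PCK1 read 9.53, 10.03, 10.45 and 10.32 in NmatCpat animals 1 to 4, against 9.18, 10.10, 9.79 and 8.47 in NmatNpat animals 1 to 4. NmatCpat animals 3 and 4 were the highest of the 8 and NmatNpat animal 4 was the lowest by a wide margin. The difference was 0.70 (standard error 0.38, 95% interval -0.19 to 1.59), which did not pass the test (two-sided exact permutation test, p = 0.17). It fell to 0.39 without NmatNpat animal 4. Without NmatNpat animal 2 it was 0.94, and PCK1 then passed the call rule.

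Glycerol kinase, GK, which returns free glycerol to glycerol 3-phosphate and is known to be scarce in white fat, was the single enzyme of the 10 with a lower mean in NmatCpat lambs. It read 5.44, 4.17, 6.02 and 3.41 in NmatCpat animals 1 to 4, against 5.47, 5.70, 4.77 and 6.04 in NmatNpat animals 1 to 4. NmatCpat animals 2 and 4 were below every NmatNpat lamb, while NmatCpat animals 1 and 3 lay among them. The difference of -0.73 (standard error 0.58, 95% interval -2.08 to 0.62) did not pass the test (two-sided exact permutation test, p = 0.26). Without NmatCpat animal 4, the array with the highest values of 8 of 11 muscle markers, the difference was -0.28. The part of those transcripts in the value was not tested. Without NmatCpat animal 3 the difference was -1.15, and with an offset of 16 before the log it was -0.43, neither past the rule.

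Among the other genes of this supply, the mitochondrial carboxykinase PCK2 read 10.77, 10.33, 10.29 and 10.78 in NmatCpat animals 1 to 4, against 10.16, 10.28, 9.90 and 9.85 in NmatNpat animals. The genotypes did not overlap, though NmatCpat animal 3 and NmatNpat animal 2 were almost level, and the difference of 0.50 (95% interval 0.04 to 0.96) was under the fold of the call rule. AQP3, a channel for water and glycerol, read 10.48, 10.34, 10.82 and 10.47 in NmatCpat animals, against 9.61, 10.13, 9.85 and 10.14 in NmatNpat animals. Here too all NmatCpat lambs were above all NmatNpat lambs, and AQP3 passed the call rule with a difference of 0.60 (standard error 0.19, 95% interval 0.15 to 1.05, adjusted p = 0.98 in limma). Its fold was below that of the rule without NmatCpat animal 3 (0.50), and also when NmatNpat animal 1 (0.49) or 3 (0.57) was left out. GPD1, which makes glycerol phosphate from the glycolytic intermediate dihydroxyacetone phosphate, differed by 0.07 (95% interval -0.38 to 0.52).

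The 17 measured genes of pyruvate and triose phosphate supply, of 19 listed, had 2 called as higher and none as lower in NmatCpat lambs, with 13 differences above 0 and a median of 0.10, where 2.91% of all named genes were called and 50.7% were above 0. PC, the pyruvate carboxylase that makes oxaloacetate for the carboxykinases, read 8.94, 8.11, 8.66 and 9.0 in NmatCpat animals 1 to 4, against 8.10, 8.32, 7.54 and 7.89 in NmatNpat animals. NmatCpat animal 2 lay within the NmatNpat range and the other NmatCpat lambs lay above it. The difference on this brightest probe set was 0.71 (95% interval 0.10 to 1.33), and on its dimmer probe sets it was -0.30 and 0.00. GOT1, the cytosolic aspartate aminotransferase, read 5.66, 5.55, 6.21 and 6.05 in NmatCpat animals, against 4.37, 5.06, 5.77 and 4.12 in NmatNpat animals. NmatNpat animal 3 was above NmatCpat animals 1 and 2, and the difference was 1.04 (95% interval 0.17 to 1.91). The GOT1 probe set was dim, at the 40.0th percentile of level among all probe sets. Its deposited signals in NmatNpat animals 1 and 4 were 21.9 and 16.8. With an offset of 16 before the log, GOT1 differed by 0.72 and was still called. The adjusted p of PC and of GOT1 was 0.98 in limma. PC lost its call without NmatCpat animal 1, 3 or 4 or NmatNpat animal 3 or 4, with differences of 0.57 to 0.72, and GOT1 without NmatCpat animal 3 or 4 or NmatNpat animal 1 or 4, with differences of 0.80 to 0.98. PC was also not called with the animal number as a block, and the mean of its probe sets differed by 0.14.

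**Figure D3:**
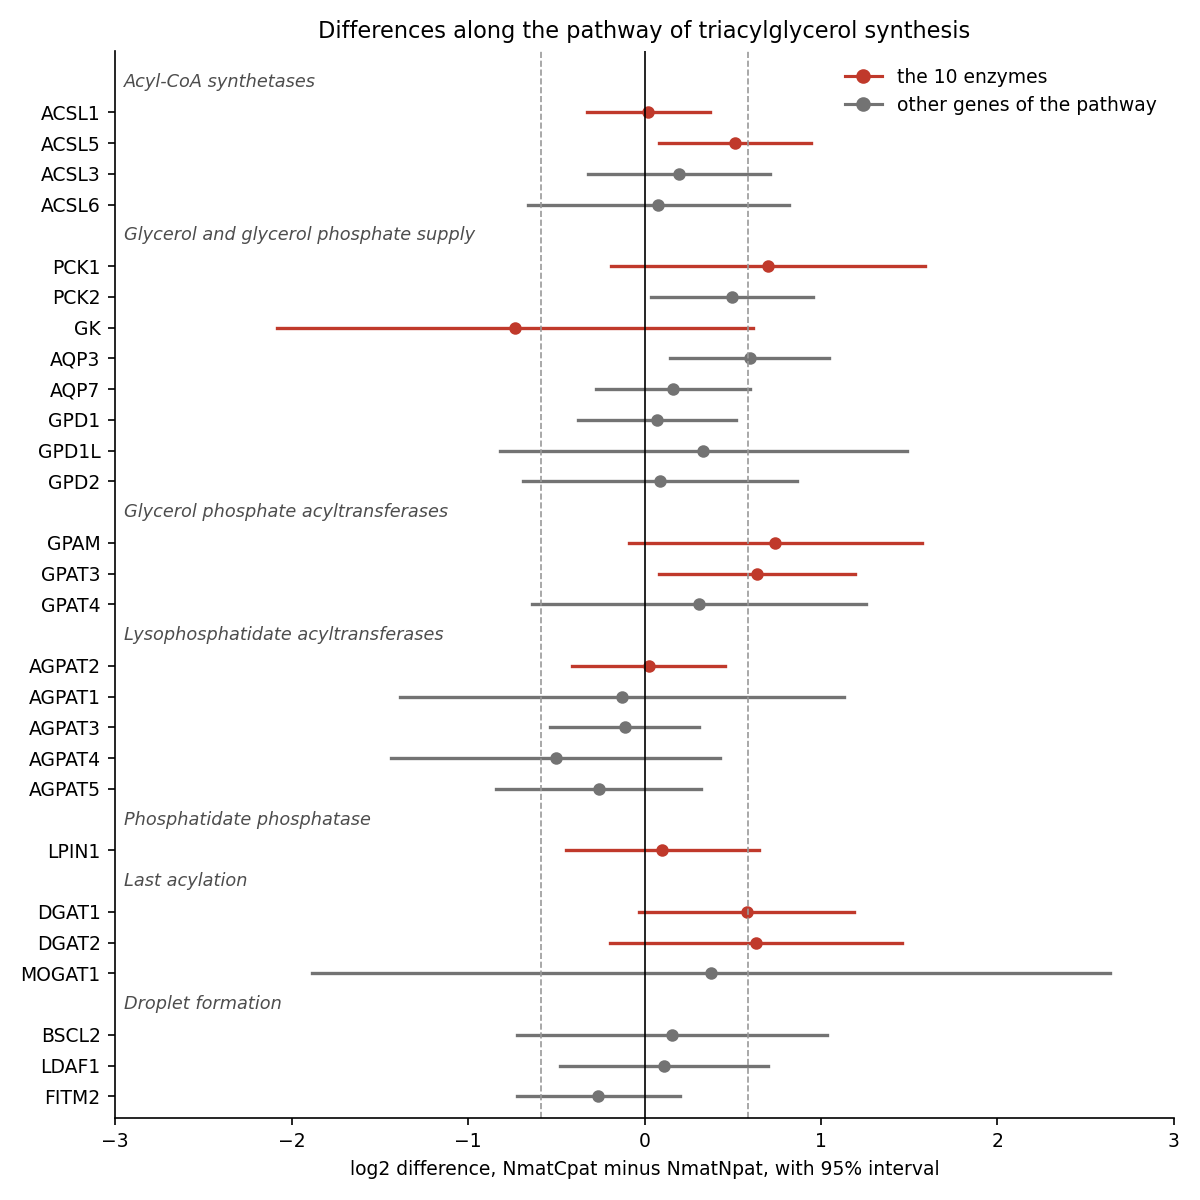
Log2 difference, NmatCpat minus NmatNpat, with its 95% interval for the genes of triacylglycerol synthesis in the order of the steps, the 10 enzymes in red and other measured genes in grey, with dashed lines at a 1.5-fold change. The intervals of ACSL5, PCK2, AQP3 and GPAT3 lie above 0, and those of all other genes drawn include it.

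The first acylation of glycerol 3-phosphate had the enzyme with the largest mean difference and the one that passed the call rule. GPAM, the glycerol phosphate acyltransferase of the outer mitochondrial membrane, read 6.87, 7.78, 8.44 and 7.88 in NmatCpat animals 1 to 4, against 7.17, 6.41, 7.30 and 7.12 in NmatNpat animals 1 to 4. NmatCpat animals 2 to 4 were above every NmatNpat lamb, and NmatCpat animal 1 was below all but NmatNpat animal 2. The difference was 0.74 (standard error 0.36, 95% interval -0.09 to 1.57), and the exact permutation test did not reach 0.05 (two-sided, p = 0.11). Without NmatCpat animal 1 it was 1.03 and passed the call rule. Without NmatCpat animal 3 it was 0.51 and without NmatNpat animal 2 it was 0.54, neither past the rule.

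GPAT3, the glycerol phosphate acyltransferase of the endoplasmic reticulum that is prominent in differentiating fat cells, had 2 probe sets. The brighter read 8.23, 8.95, 8.49 and 8.99 in NmatCpat animals 1 to 4, against 8.19, 7.79, 7.80 and 8.33 in NmatNpat animals 1 to 4. Again NmatCpat animals 2 to 4 were above every NmatNpat lamb, and NmatCpat animal 1 lay between NmatNpat animals 1 and 4. The means were 8.67 ± 0.37 in NmatCpat and 8.03 ± 0.275 in NmatNpat lambs (SD, n = 4 each). The difference of 0.64 (standard error 0.24, 95% interval 0.08 to 1.2), a fold change of 1.56, passed the call rule with an adjusted p of 0.98 in limma, and its P ranked 646 among the 24016 probe sets. The exact permutation test gave a p of 0.0571 (two-sided).

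The dimmer GPAT3 probe set read 5.00, 6.21, 4.64 and 5.71 in NmatCpat animals, against 4.93, 4.35, 4.57 and 5.24 in NmatNpat animals. On it, NmatCpat animals 2 and 4 were the highest lambs and the other NmatCpat animals overlapped with NmatNpat lambs. Its difference of 0.62 was close to that of the brighter probe set, but with a 95% interval of -0.25 to 1.49 it did not pass the rule. Leaving out NmatCpat animal 2 or 4, or NmatNpat animal 2 or 3, also ended the call of GPAT3, with differences of 0.53 to 0.56. GPAT4, the related acyltransferase of the endoplasmic reticulum, differed by 0.31 (95% interval -0.64 to 1.26) on its brighter probe set and by 0.12 on its dimmer one, neither past the test.

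AGPAT2 and LPIN1, the enzymes of the middle steps, differed little between the genotypes. AGPAT2, a lysophosphatidate acyltransferase whose loss causes generalized lipodystrophy in humans, read 9.11, 9.04, 9.01 and 8.68 in NmatCpat animals 1 to 4, against 9.10, 9.14, 8.65 and 8.84 in NmatNpat animals 1 to 4. The genotypes were intermixed. The difference was 0.02 (standard error 0.19, 95% interval -0.41 to 0.46), which excludes a 1.5-fold change. Of its paralogs, AGPAT1 differed by -0.13 (95% interval -1.38 to 1.13), AGPAT3 by -0.11 (95% interval -0.53 to 0.31), AGPAT4 by -0.50 (95% interval -1.44 to 0.43) and AGPAT5 by -0.26 (95% interval -0.84 to 0.32). All 4 estimates were below 0 and none passed the test. The dimmer probe sets of AGPAT3 read -0.84 and -0.42, and those of AGPAT5 ran from -0.30 to 0.10.

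LPIN1, a phosphatidate phosphatase whose loss leaves mice with little fat tissue, read 5.95, 5.96, 5.81 and 6.17 in NmatCpat animals 1 to 4, against 5.63, 5.40, 6.21 and 6.25 in NmatNpat animals 1 to 4. All 4 NmatCpat lambs lay inside the NmatNpat range, between NmatNpat animals 1 and 2 below and animals 3 and 4 above. The difference was 0.10 (standard error 0.24, 95% interval -0.45 to 0.65). Its interval excludes a 2-fold change but not a 1.5-fold one. LPIN2 and LPIN3 are not among the genes named here.

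The last acylation is carried out by 2 unrelated enzymes. DGAT1, which also esterifies fatty acids released by lipolysis, read 8.67, 9.34, 8.74 and 8.38 in NmatCpat animals 1 to 4, against 8.48, 8.20, 8.39 and 7.73 in NmatNpat animals 1 to 4. NmatCpat animals 1 to 3 were above every NmatNpat lamb, and NmatCpat animal 4 was below NmatNpat animals 1 and 3. The difference was 0.58 (standard error 0.26, 95% interval -0.03 to 1.19), and the two-sided exact permutation test gave p = 0.0857. DGAT2, tied in fat cells to newly made fatty acids, read 8.52, 8.96, 9.52 and 7.85 in NmatCpat animals, against 8.09, 7.78, 7.98 and 8.46 in NmatNpat animals. The same 3 NmatCpat lambs were above every NmatNpat lamb, and NmatCpat animal 4 was above NmatNpat animal 2 alone. Its difference was 0.63 (standard error 0.36, 95% interval -0.20 to 1.46), which did not pass the test (two-sided exact permutation test, p = 0.17).

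Both differences depended on single lambs. Without NmatCpat animal 2 DGAT1 differed by 0.39, and without NmatNpat animal 4 by 0.42. DGAT2 differed by 0.36 without NmatCpat animal 3. None of these passed the call rule. Without NmatCpat animal 4, the array with the highest values of 8 muscle markers, DGAT1 differed by 0.71 and DGAT2 by 0.92, and both passed the call rule. Without NmatNpat animal 1 as well, the differences were 0.80 and 0.92, and both again passed. The part of the muscle transcripts in these values was not tested. MOGAT1, a monoacylglycerol acyltransferase, differed by 0.38 with a 95% interval of -1.89 to 2.64, too wide to give a direction, and MOGAT2 is not among the genes named here.

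**Figure D4:**
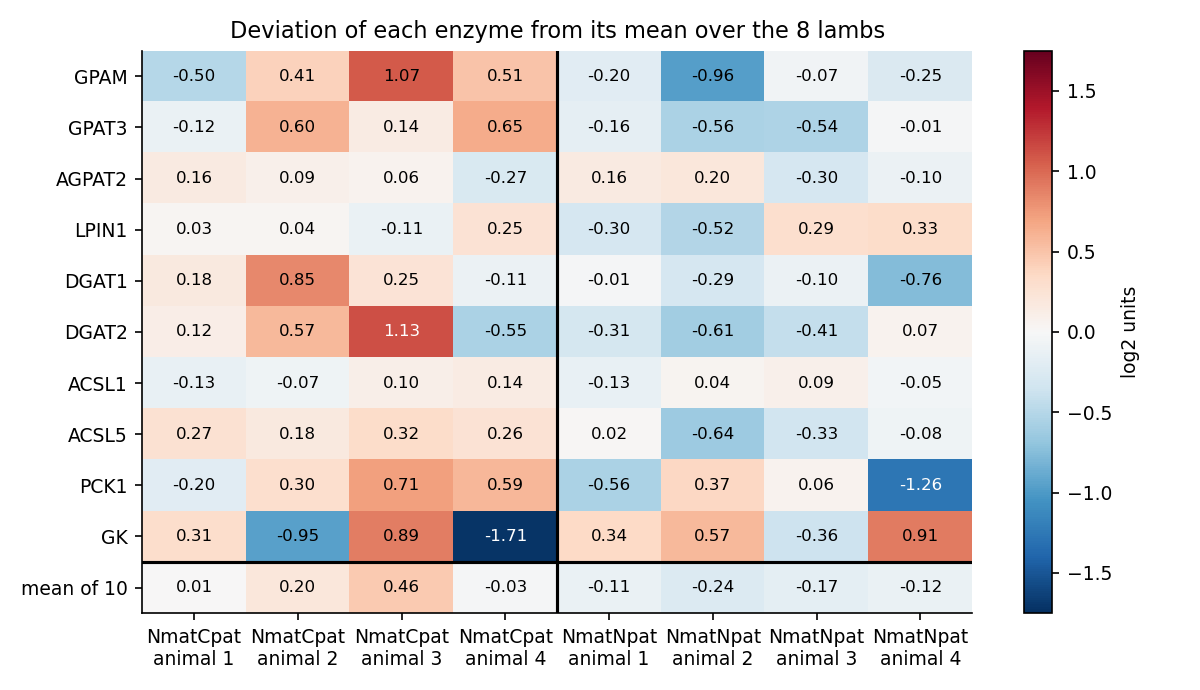
Deviation of each enzyme from its mean over the 8 lambs, in log2 units, with lambs as columns (NmatCpat left, NmatNpat right), the enzymes as rows and their mean in the bottom row. NmatCpat animal 3 has the highest mean, 0.46, and NmatNpat animal 2 the lowest, -0.24.

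Taken lamb by lamb, the mean deviation of the 10 enzymes from their own means was 0.01, 0.20, 0.46 and -0.03 in NmatCpat animals 1 to 4, against -0.11, -0.24, -0.17 and -0.12 in NmatNpat animals 1 to 4. Each NmatCpat lamb was above each NmatNpat lamb on this mean, the nearest values being -0.03 and -0.11. It is given without a test, and how often the mean of 10 other genes separates in this way was not computed. The same mean over the 17 other measured genes of the synthesis overlapped between genotypes. Its values were 0.18, -0.03, 0.02 and 0.03 in NmatCpat animals 1 to 4, against -0.06, -0.18, -0.16 and 0.20 in NmatNpat animals. In NmatCpat animals 1 to 4, 6, 8, 9 and 6 of the enzymes were above their own means, against 3, 4, 3 and 3 in NmatNpat animals. Each own mean was taken over these same lambs, so the counts and the mean deviations partly restate the genotype differences. They are no separate result. NmatCpat animal 3 had the highest value of 4 enzymes, GPAM, DGAT2, ACSL5 and PCK1. NmatNpat animal 2 had the lowest value of 5, GPAM, GPAT3, LPIN1, DGAT2 and ACSL5. Fat cell markers did not follow the same order, with mean deviations between -0.05 and 0.10 in NmatCpat lambs and between -0.11 and 0.12 in NmatNpat lambs.

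The enzymes differed in how far lambs of 1 genotype spread. The SD within a genotype was 0.585 log2 units for PCK1, against a median of 0.218 for the 1000 probe sets nearest to it in level, the 95.7th percentile among them. DGAT2, at 0.540 against 0.253, and GPAM, at 0.542 against 0.301, were at the 94.4th and 91.8th percentiles. ACSL5, ACSL1 and LPIN1 were at the 27.5th, 27.2nd and 18.9th percentiles. PCK1, DGAT2 and GPAM were thus both among the largest differences and among the more variable genes between lambs of the same genotype. The 95% intervals of AGPAT2, LPIN1, ACSL1 and ACSL5 exclude a 2-fold change, and those of the other 6 enzymes do not.

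Over the 8 lambs, the 45 pairs of enzymes had a median correlation of 0.21, with 27 above 0, and after the genotype means were removed the median was -0.06, with 21 above 0. These values share arrays and are a description. An unadjusted p under 0.05 for Pearson's r by exact permutation was found for 3 pairs, and none had one after Benjamini-Hochberg adjustment over the 45. AGPAT2 and LPIN1 ran in opposite directions, with r = -0.81 (exact permutation p = 0.0192, adjusted p = 0.58) and Spearman's rho = -0.81 (exact permutation p = 0.0218, adjusted p = 0.52), and r = -0.81 without the 2 lambs farthest from the median of AGPAT2. Within the genotypes r was -0.79 over NmatCpat and -0.92 over NmatNpat lambs, 4 lambs each. GPAT3 and ACSL5 had r = 0.76 (exact permutation p = 0.0283, adjusted p = 0.58) and rho = 0.69 (exact permutation p = 0.0694, adjusted p = 0.52), with r = 0.88 without the 2 farthest lambs. Within genotypes it was -0.58 over NmatCpat and 0.85 over NmatNpat lambs, so the pooled value did not hold within both. GPAM and ACSL5, which are separated by 2 protein-coding genes on sheep chromosome 22, had r = 0.71 (exact permutation p = 0.0491, adjusted p = 0.58) and rho = 0.57 (exact permutation p = 0.15, adjusted p = 0.57). Their r was 0.24 without the 2 farthest lambs, on which the relation rests.

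The 4 genes whose pattern over the 8 lambs was most like that of GPAT3, among 4492 genes above the median level and outside the lists used here, were NT5C2, a cytosolic nucleotidase (r = 0.96), TERF2, a telomere-binding protein (r = 0.94), RPL39, a ribosomal protein (r = 0.94), and EXOC1, a subunit of the exocyst (r = 0.91). Without the 2 lambs farthest from the median, r ran from 0.84 to 0.94. These same lambs had picked the 4 genes as the highest r of 4492, so the lambs left are no separate check of the likeness. The differences of the 4 genes were 0.30 for NT5C2, 0.64 for TERF2, 0.15 for RPL39 and 0.27 for EXOC1. They ran from small to larger, and all 4 were above 0, a direction that choosing genes by likeness to GPAT3 itself favours. TERF2 passed the call rule, with an adjusted p of 0.98 in limma. TERF2 had 2 probe sets and EXOC1 had 4, and only the brightest of each was used.

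Around the 10 enzymes, 17 of 27 other genes listed for triacylglycerol synthesis were measured. Their differences were above 0 for 12, the median was 0.11, and AQP3 was the 1 gene called. Together with the 10 enzymes, 21 of 27 measured genes of the synthesis were above 0 and their median was 0.16, against 50.7% above 0 for all genes. In the branch that leads to phospholipids, 17 of 28 listed genes were measured, 8 were above 0, the median was -0.03, and 1 was called. That gene was CRLS1, the cardiolipin synthase, which read 5.22, 5.90, 5.01 and 4.84 in NmatCpat animals, against 4.12, 5.04, 4.13 and 4.04 in NmatNpat animals. NmatNpat animal 2 was above NmatCpat animals 3 and 4 and the other NmatNpat lambs were below all NmatCpat lambs, a difference of 0.91 (95% interval 0.18 to 1.65, adjusted p = 0.98 in limma). The CRLS1 probe set was dim, at the 31.5th percentile of level, with deposited signals of 18.5, 17 and 16 in NmatNpat animals 1, 3 and 4. Leaving out NmatCpat animal 2 or NmatNpat animal 1, 3 or 4 ended its call, with differences of 0.69 to 0.84. An offset of 16 before the log (0.57) and trended robust variances also ended it.

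Transcription regulators of fat synthesis showed no call. Of 18 measured genes of 19 listed, 9 were above 0 and the median was 0.02. The smallest P belonged to NR1H2, the oxysterol receptor LXR beta, which read 8.25, 8.14, 7.96 and 7.85 in NmatCpat animals, against 8.34, 8.54, 8.37 and 8.46 in NmatNpat animals. All 4 NmatCpat lambs were below all 4 NmatNpat lambs, with a difference of -0.38 (95% interval -0.75 to -0.01) that was under the fold of the call rule. Of the genes of triacylglycerol hydrolysis, 6 of 10 listed were measured, 2 were above 0, the median was -0.11 and none was called. PNPLA2, the adipose triglyceride lipase, had the smallest P there, with a difference of 0.68 (95% interval -0.22 to 1.58). Over these 5 lists, 4 of 75 measured genes were called, all as higher in NmatCpat lambs. Of all named genes 2.91% were called, 127 as higher and 139 as lower. Lack of overlap between genotypes held for 3 of the 75, PCK2, AQP3 and NR1H2, and for 2.84% of all named genes. Without NmatNpat animal 1 and NmatCpat animal 4, 3 pathway genes and 2.98% of all named genes were called. They were CRLS1 (0.97) and CEBPA (0.65), a regulator of fat cell differentiation, as higher and INSIG1 (-1.003), which restrains the activation of sterol regulatory element-binding proteins, as lower, while AQP3 (0.51), PC (0.65) and GOT1 (0.83) were not called. With all 8 lambs CEBPA differed by 0.48 and INSIG1 by -0.68, neither called, and without NmatCpat animal 2 INSIG1 differed by -0.37. These 2 genes were named after their values were seen.

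**Figure D5:**
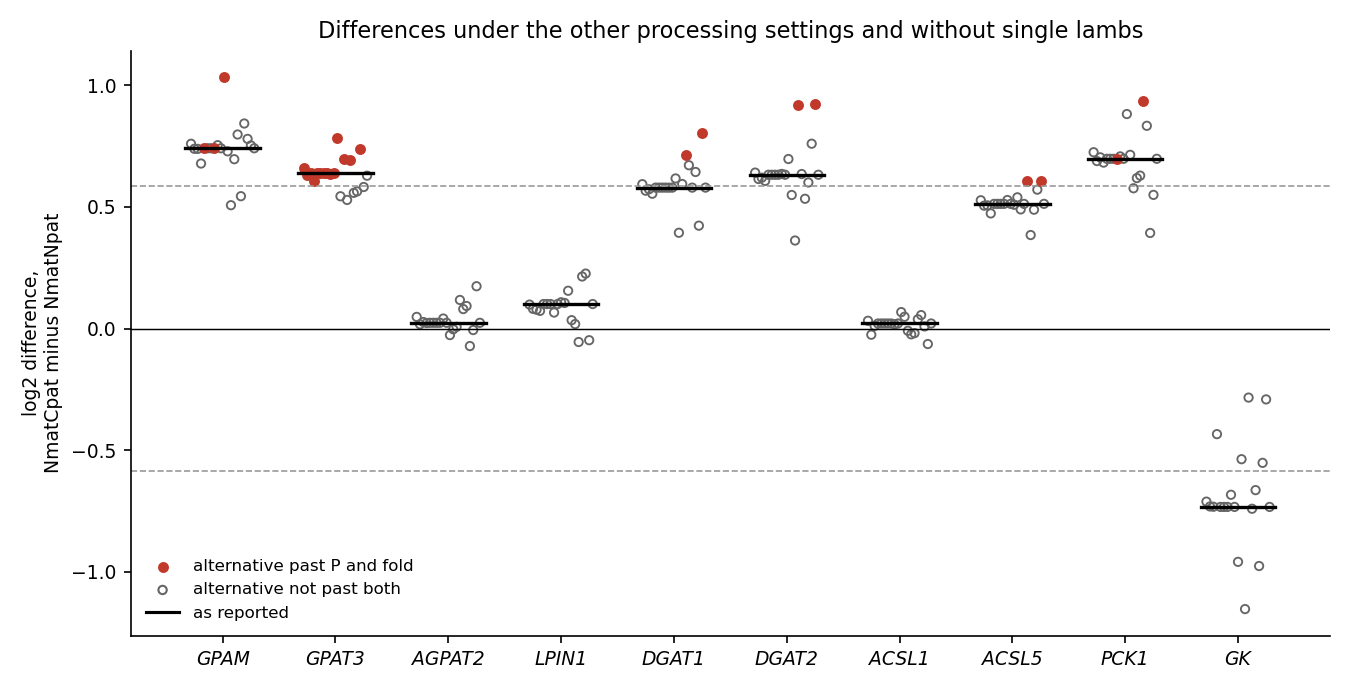
Log2 difference, NmatCpat minus NmatNpat, of each enzyme as reported (bar) and under each other processing setting or with lambs left out (circles), filled red where P was at most 0.05 and the fold over 1.5, with dashed lines at a 1.5-fold change. GPAT3 ran from 0.53 to 0.78, and AGPAT2, LPIN1 and ACSL1 fell on both sides of 0.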

How the data were processed

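Total RNA from perirenal adipose tissue of 8 lambs was hybridised by the authors to Affymetrix Bovine Genome Arrays, 1 per lamb. The deposited values are intensity values on a linear scale made with MAS5, its version not given in the sources used here. The methods describe background correction and quantile normalization, but the deposited columns do not share quantiles, so log2 was taken here and quantile normalization applied. After 112 control probe sets were left out, limma 3.58.1 (R 4.3.3) was run on 24016 for NmatCpat minus NmatNpat with lmFit, eBayes and no covariate, with Benjamini-Hochberg adjustment over all of them. A call needed a P no higher than 0.05 together with a fold change over 1.5. Single genes were also compared by two-sided exact permutation over 70 arrangements, which cannot give a p under 0.0286. Intervals are at the 95% level, from limma. The code was tested on simulated data with known changes. Only 8 arrays limit the precision, and the median deposited signal lay between 65.9 and 71.7 in NmatCpat lambs and between 65.3 and 72.6 in NmatNpat lambs. The labels number the animals of each genotype, give no batch, and do not say whether any lambs were related.

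Symbols came from the platform annotation, which is old: 13292 probe sets had 1 symbol, 86 several and 10638 none. Sheep assembly ARS-UI_Ramb_v3.0 served for neighbouring genes only. The 10 enzymes, 5 pathway lists and 11 marker lists were chosen with earlier results of these data known. Named genes were the 10 enzymes, the smallest P and every called gene of each pathway list (at most 5), genes that share a reaction with the enzymes, and the 4 genes most like GPAT3. Alternatives were other normalizations, an offset of 16, filters on dim and on cross-binding probe sets, other variance models, array weights, leaving out each lamb, a block for the animal number, the mean of a gene's probe sets and other thresholds. Leaving out the 2 lambs that stood apart was added after seeing the data.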

Additional observations from a re-analysis of the deposited data

Results flagged for a closer look

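Of 62 groups of 4 lambs examined for a single lamb far from the other 3, 3 held one, and chance alone gives about 1 in 20. None of the 10 enzymes was among them. AGPAT4 read 4.17 in NmatCpat animal 2, against 5.57 to 5.77 in the other NmatCpat lambs. ACSL3 read 8.64 in NmatNpat animal 1, the array with the neuron transcripts, against 7.77 to 7.87 in the other NmatNpat lambs, and the part of those transcripts in its value was not tested. CRLS1 read 5.04 in NmatNpat animal 2, against 4.04 to 4.13 in the other NmatNpat lambs.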

How the results depend on the processing

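With 4 lambs a genotype, the median half-width of the enzymes' intervals was 0.58 log2 units, about the 1.5-fold change of the call rule, and some smaller differences, such as that of ACSL5, still passed P of 0.05. One enzyme was called as reported. The number was 2 among probe sets above the median level (GPAM, GPAT3), which leaves no value for LPIN1 and GK, 3 with trended robust variances (GPAM, GPAT3, PCK1), 0 with the mean of a gene's probe sets, 2 at a fold over 1.2 (GPAT3, ACSL5), 0 at a fold over 2, 0 at an adjusted p under 0.05, 0 to 2 without single lambs, and 3 without both lambs that stood apart. GPAT3 lost its call in 6 of 20 fits. Of the 24016 probe sets, 943 were called as reported, 814 with trended robust variances and 626 without moderated variances. Calls numbered 1118 at a fold over 1.2, 602 at a fold over 2 and 0 adjusted. Above the median level, where only the brighter probe sets were tested, 244 were called. Leaving out single lambs gave 980 to 1054 and leaving out both lambs 1027. The 4 calls of the pathway lists became 2 above the median level, 1 at a fold over 2, 0 adjusted and 1 to 5 without single lambs.

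Of 198 differences of the enzymes under the alternatives, 170 kept direction and side of the call rule, 6 lost and 11 gained a call, and 11 changed sign, all of ACSL1, AGPAT2 and LPIN1. ACSL1 was -0.025 with cyclic loess, -0.063 without both lambs and -0.023 to 0.068 without single lambs. LPIN1 was -0.047 without both lambs and -0.055 to 0.23 without single lambs, and AGPAT2 was -0.072 to 0.12 without single lambs. The cause was not tested. Deviations of lambs of equal animal number had correlations of -0.01 to 0.05. NmatCpat animals 1, 2 and 3 still matched best with the NmatNpat animal of their own number, and NmatCpat animal 4 with NmatNpat animal 3. The labels do not say whether the numbers pair lambs. With the number as a replicate block 1 enzyme (GPAT3), 1124 probe sets and 4 pathway genes were called, with INSIG1 gained and PC lost. Among the 125 probe sets of the pathway lists, dimmer ones of DGKD (-0.87), SLC25A12 (-0.61), CEBPD (0.66) and LIPE (-0.73), named after their values were seen, also passed.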
